A study of Mus musculus with 6 samples.

Results

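The neurotrophins Bdnf and Ntf3, their receptors Ntrk2, Ntrk3 and Ngfr, and the GDNF family receptors Ret, Gfra1 and Gfra2 were examined in RNA-Seq of preBötC neurons, the medullary neurons at the core of the circuit for inspiratory rhythm. These 8 genes were taken by name from the 49568 gene names in the files, and all 8 were found there. Dbx1 neurons were identified by tdTomato in slices from postnatal day 2 Dbx1CreERT2; Rosa26tdTomato mice of both sexes, whose dams received tamoxifen during gestation. Non-Dbx1 neurons were somata in slices from mice of that same genotype, age and treatment that lacked the fluorescence. Each sample pooled 15 neurons, every sample came from a different mouse, and there were 3 samples per group. Labelling marked cells that descended from progenitors with Dbx1 promoter activity when tamoxifen acted, so a non-Dbx1 sample was defined by the absence of a label only and may hold neurons of several kinds.

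Neurotrophins are secreted proteins that dimerise and activate Trk receptor tyrosine kinases: BDNF and NT-4 act through TrkB, and NT-3 mainly through TrkC, while the p75 receptor binds all neurotrophins. GDNF family ligands bind a GPI-anchored GFRα co-receptor, which presents them to the shared receptor tyrosine kinase RET. During development, BDNF and GDNF are known to support cranial sensory neurons that carry respiratory afferents. BDNF acting through TrkB is also known to modulate the activity of respiratory neurons.

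Expression was measured as reads per kilobase of exon scaled to the library's reads on genes (RPKM), and the whole reads behind each value were recovered from the steps of the deposited values. Reads on genes ranged from 6464675 to 9432958 per sample. Markers of neurons were high throughout, summing to 994 to 1708 RPKM in Dbx1 and 993 to 1380 RPKM in non-Dbx1 samples. Dbx1 itself was listed at 0 in all 6 samples, and so gave no check of the labels. Slc17a6, which encodes the vesicular glutamate transporter that Dbx1-derived preBötC neurons are known to use, lay between 47.2 and 128 RPKM in the Dbx1 samples, above its range of 13.6 to 35.1 RPKM in the non-Dbx1 samples. The paper did not call Slc17a6 at its FDR threshold of 0.1. Slc32a1, which encodes the vesicular GABA and glycine transporter, overlapped, at 6.69 to 15.5 RPKM in Dbx1 and 10.3 to 22.4 RPKM in non-Dbx1 samples. The sums of erythroid and of vessel cell markers separated the groups. Erythroid markers summed to 90.3 to 507 RPKM in Dbx1 and 733 to 14058 RPKM in non-Dbx1 samples, and vessel cell markers to 0.107 to 0.650 RPKM and 3.06 to 67.6 RPKM. Each globin gene did so alone, but no vessel cell marker did. The erythroid gene Alas2 did not either, at 0.648 to 2.35 RPKM in Dbx1 samples and 0.268 and 0.790 RPKM in non-Dbx1 replicates 2 and 3. Pecam1 was highest in Dbx1 replicate 2, at 0.507 RPKM. The highest erythroid sum was in non-Dbx1 replicate 1, the sample with the lowest Bdnf and Ntrk2 and the highest Gfra2, and its part in the levels of these genes was not tested. The non-Dbx1 samples also differed from each other in other markers. The 6 catecholaminergic markers summed to 712 RPKM in non-Dbx1 replicate 2, of which Dbh gave 339 RPKM, against 2.19 to 22.1 RPKM in the other 5 samples. The 8 oligodendrocyte lineage markers summed to 434 RPKM in non-Dbx1 replicate 1 and to at most 73.6 RPKM elsewhere. The 6 cholinergic motor neuron markers summed to 157 RPKM in non-Dbx1 replicate 3 and to at most 27.8 RPKM elsewhere. In pooled cells, fewer cells of a kind and less RNA per cell cannot be told apart.

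Of the 8 genes, 7 had reads in all 6 samples and Ntf3 had none. Bdnf in non-Dbx1 replicate 1 (1 read) and Gfra1 in non-Dbx1 replicate 3 (2 reads) were under the 3 reads taken as the detection floor. None of the 7 that could be tested differed between Dbx1 and non-Dbx1 samples at a false discovery rate (FDR) under 0.1 in limma, a linear model fitted to log2(RPKM + 1) over all 17614 genes tested. Over all genes this rule called 1, or 0.00568%, which was lower in the Dbx1 samples. The paper's DESeq2 test on read counts of the same samples called more genes at that FDR threshold. Among them were Gata2, lower, and Hif1a, higher in Dbx1 neurons. The limma test here was thus the stricter of these, and a member that was not called was not shown to be equal between the groups. No member had an unadjusted p under 0.05, against 5.2% of all genes. Only Ntrk2 had groups that did not overlap, 1 of 7 members, against 10.6% of all genes. The log2 fold change (L2FC, Dbx1 minus non-Dbx1 on the log2(RPKM + 1) scale, which understates changes of low genes) was above 0 for 5 members and below 0 for 2, with a median of 0.53, beside 0.01 over all genes. The members separated instead by how evenly they were expressed from sample to sample, with Ntrk2, Ntrk3 and Ret fairly even and Bdnf, Ngfr, Gfra1 and Gfra2 each far above or below the rest in at least 1 sample.

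**Figure D1:**
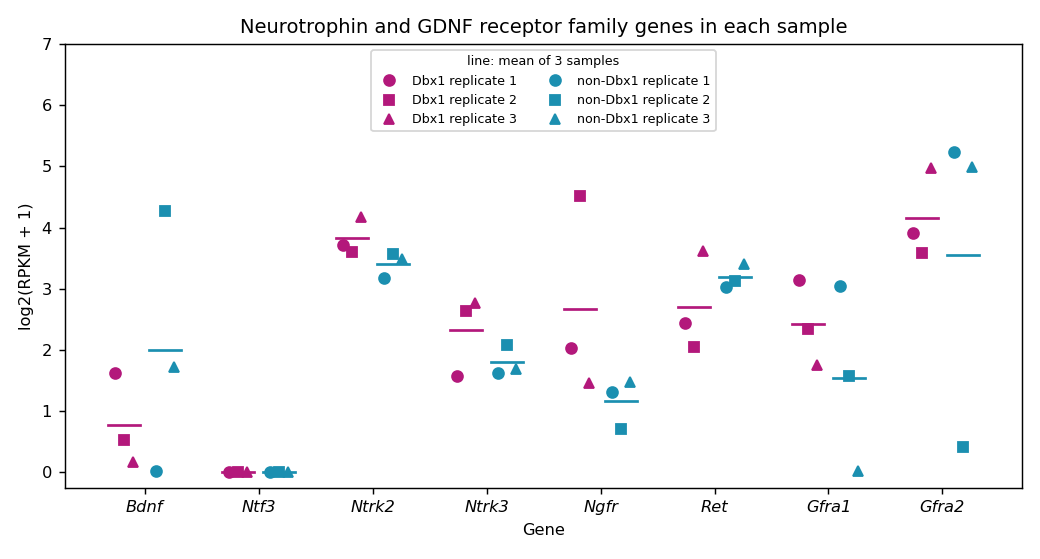
Expression of the 8 genes as log2(RPKM + 1), 1 point per sample of 15 pooled neurons, with Dbx1 samples in magenta, non-Dbx1 samples in blue, and lines at the mean of 3 samples. Ntrk2 lies in a narrow band from 8.01 to 16.9 RPKM, whereas Bdnf and Ngfr are each carried by 1 high sample and Gfra2 and Gfra1 each drop out of 1 non-Dbx1 sample.

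Bdnf (ENSMUSG00000048482, chromosome 2, 109674700 to 109727007, plus strand, mm10) encodes the TrkB ligand brain-derived neurotrophic factor. It measured 2.09, 0.447 and 0.121 RPKM in Dbx1 replicates 1 to 3, from 178, 36 and 9 reads. In non-Dbx1 replicates 1 to 3 it measured 0.0145, 18.2 and 2.29 RPKM, from 1, 1667 and 231 reads. Bdnf was thus high in 1 sample, non-Dbx1 replicate 2, where it stood 7.96-fold above the next highest sample, and near the limit of detection in non-Dbx1 replicate 1, so the non-Dbx1 samples spanned the whole range of the Dbx1 samples.

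The group means of Bdnf were 0.887 ± 1.06 RPKM in Dbx1 and 6.84 ± 9.92 RPKM in non-Dbx1 samples (SD, n = 3 each). The L2FC was -1.23 (SE 1.03, 95% interval -3.57 to 1.12), with an FDR of 0.949 in limma. Leaving out non-Dbx1 replicate 2 gave an L2FC of -0.09, and leaving out non-Dbx1 replicate 1 gave -2.22 with an FDR of 0.883, so these 2 samples set its size. The residual SD of Bdnf, 1.60 on the log2 scale, lay at the 97.8th percentile of all genes tested, whose median was 0.55. Non-Dbx1 replicate 2 was also the sample with the high catecholaminergic sum and with 67.6 RPKM of vessel cell markers, of which Cldn5 gave 63.7 RPKM. The other vessel cell markers in that sample were Tek at 2.16, Flt1 at 1.60, Pdgfrb at 0.0756, Pecam1 at 0.0343 and Rgs5 at 0 RPKM. The part of catecholaminergic or vessel cells in the Bdnf level was not tested.

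The genes whose profile over the 6 samples lay closest to that of Bdnf, by the root mean square difference of centred log2(RPKM + 1), were Gm15519 (0.41), Rasd1 (0.45) and Galr1 (0.48). Galr1, which encodes a galanin receptor, measured 8.96 RPKM in non-Dbx1 replicate 2 and at most 0.964 RPKM in the other samples. Rasd1, a dexamethasone-induced Ras protein, measured 7.91 RPKM in non-Dbx1 replicate 2 and at most 1.87 RPKM elsewhere. Each of these was highest in the same sample as Bdnf. These are values over 6 samples, ranked among all genes tested.

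Ntf3 (ENSMUSG00000049107, chromosome 6, 126101412 to 126166910, minus strand) encodes neurotrophin-3, the main TrkC ligand. It had 0 reads in all 6 samples. A count of 0 allows up to 3 reads, which for its annotated exons would be 0.186 to 0.271 RPKM depending on the sample, counting error only. Ntf5, the gene of NT-4 and the other TrkB ligand, was listed at 0 in every sample too. Bdnf was therefore the only ligand of TrkB or TrkC with reads in these samples.

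Ntrk2 (ENSMUSG00000055254, chromosome 13, 58806569 to 59133970, plus strand) encodes TrkB, the receptor of BDNF and NT-4. It measured 12.1, 11.2 and 16.9 RPKM in Dbx1 replicates 1 to 3 and 8.01, 10.9 and 10.2 RPKM in non-Dbx1 replicates 1 to 3, from 715 to 1628 reads per sample. All 3 Dbx1 samples were above all 3 non-Dbx1 samples, by a small margin between 11.2 and 10.9 RPKM. The means were 13.4 ± 3.10 and 9.70 ± 1.50 RPKM (SD, n = 3 each).

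The Ntrk2 L2FC was 0.42 (SE 0.32, 95% interval -0.32 to 1.16), with an FDR of 0.943 in limma. An exact two-sided permutation test gave p = 0.10, the smallest value that 3 samples against 3 allow. With each sample left out in turn the L2FC stayed between 0.25 and 0.53. Ntrk2 varied less than most genes: its residual SD of 0.26 lay at the 13.7th percentile of all genes tested, and all 6 samples were within 2-fold of its median. Files of gene totals do not separate full-length TrkB from the truncated form without a kinase domain, which glia as well as neurons are known to make, and astrocyte markers summed to 24.5 to 37.0 RPKM in Dbx1 and 32.9 to 44.9 RPKM in non-Dbx1 samples. Within that list Gfap was higher in every Dbx1 sample, at 0.271 to 3.96 RPKM against 0 to 0.126 RPKM. Slc1a3 was lower in every Dbx1 sample, at 4.18 to 4.54 RPKM against 4.64 to 11.5 RPKM, and the other astrocyte markers overlapped. The part of such cells in the Ntrk2 level was not tested.

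Ntrk3 (ENSMUSG00000059146, chromosome 7, 78175959 to 78738012, minus strand) encodes TrkC, the NT-3 receptor. It measured 1.99, 5.23 and 5.81 RPKM in Dbx1 replicates 1 to 3 and 2.08, 3.23 and 2.23 RPKM in non-Dbx1 replicates 1 to 3. Dbx1 replicates 2 and 3 were above every non-Dbx1 sample and Dbx1 replicate 1 was below them all, so the groups overlapped. The means were 4.34 ± 2.06 and 2.51 ± 0.623 RPKM (SD, n = 3 each), and the L2FC of 0.53 (SE 0.56, 95% interval -0.75 to 1.81) had an FDR of 0.954 in limma. TrkC transcripts were read in all 6 samples although its ligand gene Ntf3 was not.

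Ngfr (ENSMUSG00000000120, chromosome 11, 95568818 to 95587735, minus strand) encodes p75, the receptor that all neurotrophins and their precursors bind. It measured 3.10, 21.8 and 1.75 RPKM in Dbx1 replicates 1 to 3, from 85, 565 and 42 reads. In non-Dbx1 replicates 1 to 3 it measured 1.48, 0.644 and 1.78 RPKM, from 33, 19 and 58 reads. Dbx1 replicate 2 stood 7.02-fold above the next highest sample, Dbx1 replicate 1, while Dbx1 replicate 3 lay within the non-Dbx1 range.

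The Ngfr means were 8.88 ± 11.2 and 1.30 ± 0.590 RPKM (SD, n = 3 each). Its L2FC of 1.50 (SE 0.83, 95% interval -0.40 to 3.40) was the largest of the members and had their lowest FDR, 0.924 in limma. Without Dbx1 replicate 2 the L2FC fell to 0.58, and without Dbx1 replicate 3 it was 2.10 with an FDR of 0.898. In Dbx1 replicate 2 the oligodendrocyte lineage markers summed to 19.9 RPKM, the lowest of the 6 samples. Of these, Sox10 was at 3.52 RPKM there and at 0 in Dbx1 replicates 1 and 3. Vessel cell markers summed to 0.595 RPKM, within the Dbx1 range of 0.107 to 0.650 RPKM. The part of such cells in the Ngfr level was not tested. The genes closest to Ngfr in profile were Gm15412 (0.29), RP24-325P4.5 (0.33) and Cpne4 (0.34), the last of which, a copine, measured 29.2 RPKM in Dbx1 replicate 2 and 1.38 to 9.58 RPKM elsewhere.

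**Figure D2:**
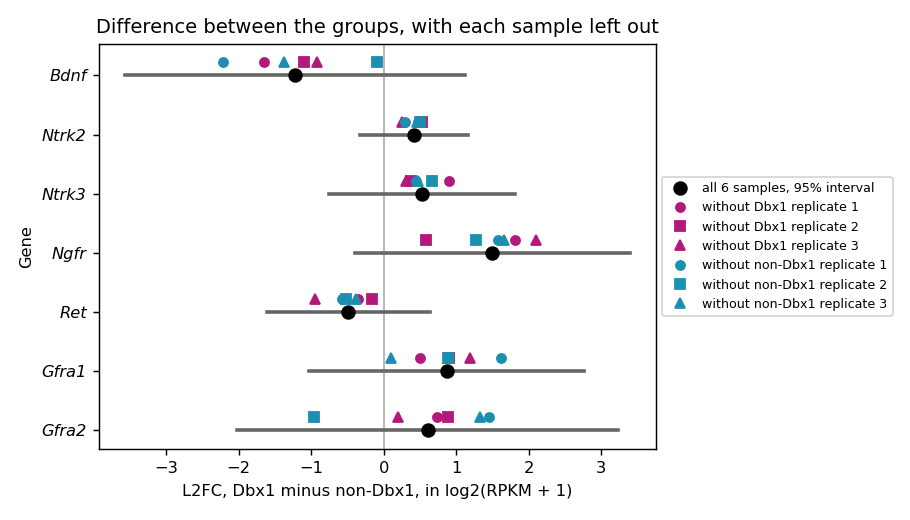
L2FC (Dbx1 minus non-Dbx1, in log2(RPKM + 1)) of the 7 members with reads, as black points with 95% intervals from limma; small symbols show the L2FC with the named sample left out. All intervals include 0, and the Gfra2 value changes sign, to -0.96, without non-Dbx1 replicate 2.

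Of the summed RPKM of Ntrk2 and Ntrk3, Ntrk2 made the larger part in 6 of 6 samples, with a share of 68.1% to 85.9% (median 78.3%). With annotated exon lengths it was again the larger part in 6 of 6 samples, with a share of 53.1% to 76.4%. The sortilin family, whose members bind proneurotrophins beside p75 or take part in the sorting of receptors, had its highest mean for Sorcs3, at 2.97 to 15.0 RPKM, though Sort1 and Sorcs1 were above it in non-Dbx1 replicate 1. Sort1, which encodes sortilin, measured 2.08, 2.88 and 4.75 RPKM in Dbx1 replicates 1 to 3 and 10.5, 0.666 and 1.60 RPKM in non-Dbx1 replicates 1 to 3. Sort1 and Ngfr were both lowest in non-Dbx1 replicate 2. None of the 4 sortilin family genes had an unadjusted p under 0.05, and the lowest FDR was that of Sorcs1, 0.960 in limma (L2FC -0.61).

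Ret (ENSMUSG00000030110, chromosome 6, 118151745 to 118197718, minus strand) encodes the receptor tyrosine kinase shared by the GDNF family ligands. It measured 4.45, 3.12 and 11.2 RPKM in Dbx1 replicates 1 to 3 and 7.13, 7.75 and 9.61 RPKM in non-Dbx1 replicates 1 to 3, from 164 to 633 reads. Dbx1 replicates 1 and 2 were below every non-Dbx1 sample and Dbx1 replicate 3 above them all. The means were 6.27 ± 4.35 and 8.16 ± 1.29 RPKM (SD, n = 3 each), and the L2FC of -0.49 (SE 0.49, 95% interval -1.61 to 0.63) had an FDR of 0.952 in limma. Without Dbx1 replicate 3 it was -0.94 and without Dbx1 replicate 2 it was -0.16, again not called.

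Gfra1 (ENSMUSG00000025089, chromosome 19, 58235604 to 58455909, minus strand) encodes GFRα1, the co-receptor preferred by GDNF. It measured 7.89, 4.07 and 2.39 RPKM in Dbx1 replicates 1 to 3, from 789, 385 and 209 reads. In non-Dbx1 replicates 1 to 3 it measured 7.28, 1.99 and 0.0169 RPKM, from 592, 214 and 2 reads. It was at 1.99 RPKM or more in every sample but non-Dbx1 replicate 3, where 2 reads are under the 3 that a count of 0 allows, and the groups overlapped.

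The Gfra1 means were 4.78 ± 2.82 and 3.10 ± 3.76 RPKM (SD, n = 3 each). Its L2FC was 0.87 (SE 0.83, 95% interval -1.02 to 2.76), with an FDR of 0.951 in limma. Leaving out non-Dbx1 replicate 3 gave an L2FC of 0.10, and leaving out non-Dbx1 replicate 1 gave 1.62. Non-Dbx1 replicate 3 was the sample with the high sum of cholinergic motor neuron markers, led by Prph, Slc18a3 and Isl1 (13.3 RPKM for Isl1). Chat was also highest there, but Mnx1 was at 0. Slc5a7 was at 7.91 RPKM there, below 8.52 RPKM in Dbx1 replicate 3 and 10.9 RPKM in non-Dbx1 replicate 2. Whether the sample held such neurons, and their part in the Gfra1 level, was not tested.

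Gfra2 (ENSMUSG00000022103, chromosome 14, 70890120 to 70979838, plus strand) encodes GFRα2, the co-receptor preferred by neurturin. It measured 14.0, 11.0 and 30.4 RPKM in Dbx1 replicates 1 to 3, from 385, 286 and 733 reads. In non-Dbx1 replicates 1 to 3 it measured 36.8, 0.338 and 30.7 RPKM, from 823, 10 and 1002 reads. Non-Dbx1 replicate 2 was 32.5-fold below the next lowest sample, and the other non-Dbx1 samples were above all 3 Dbx1 samples.

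The Gfra2 means were 18.5 ± 10.5 and 22.6 ± 19.5 RPKM (SD, n = 3 each). On the log2 scale the L2FC was 0.61 (SE 1.15, 95% interval -2.02 to 3.23), opposite in sign to the log2 ratio of the mean RPKM, -0.29. Without non-Dbx1 replicate 2 the L2FC was -0.96 (SE 0.45), with an FDR of 0.961 in limma, so the direction of Gfra2 depended on that sample and it was not called either way. Its residual SD of 1.99 lay at the 99.4th percentile of all genes tested. Non-Dbx1 replicate 2 was thus the sample with the most Bdnf and the least Gfra2, and the part of its catecholaminergic and vessel cell markers in these levels was not tested. The highest Gfra2 was in non-Dbx1 replicate 1, the sample with 434 RPKM of oligodendrocyte lineage markers, and their part was not tested either. Closest to Gfra2 in profile were Tex40 (0.51), Garem2 (0.54) and Rassf4 (0.55), each at 0.350 RPKM or less in non-Dbx1 replicate 2 and at 3.40 RPKM or more in the other 5.

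**Figure D3:**
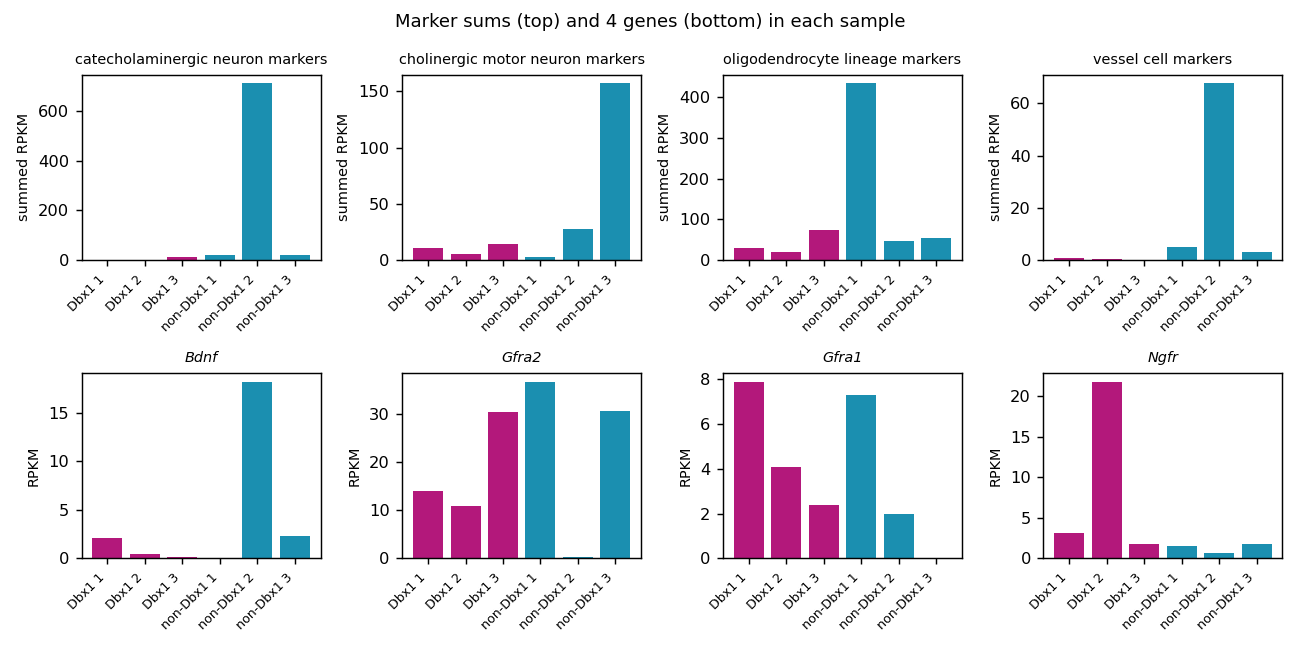
Summed RPKM of 4 marker lists (top) and RPKM of 4 genes (bottom) in each sample, Dbx1 in magenta and non-Dbx1 in blue, each axis from 0. The sample with 712 RPKM of catecholaminergic markers holds the highest Bdnf, 18.2 RPKM, and the lowest Gfra2, 0.338 RPKM, and the sample with 157 RPKM of cholinergic motor neuron markers holds the lowest Gfra1, 0.0169 RPKM.

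The other GFRα co-receptor genes were read beside Ret. Gfra4, which encodes the persephin co-receptor GFRα4, measured 19.5 to 36.6 RPKM and was the most even of the co-receptors, with an L2FC of -0.25 and an FDR of 0.960 in limma. It made the largest part of the summed GFRα RPKM in 4 of 6 samples, with shares of 39.8% to 89.1% over all 6, and Gfra2 did so in Dbx1 replicate 3 and non-Dbx1 replicate 1. This order depended on exon length: with annotated exon lengths, 2165 against 5143 bases in the files for Gfra4, Gfra4 made the largest part in 6 of 6 samples, with shares of 57.9% to 90.4%. At the files' exon lengths the share of Gfra2 ranged from 1.54% to 55.8% and that of Gfra1 reached at most 16.9%. Gfra3, the artemin co-receptor, was 0 in 5 samples and 0.0587 RPKM in non-Dbx1 replicate 2.

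**Figure D4:**
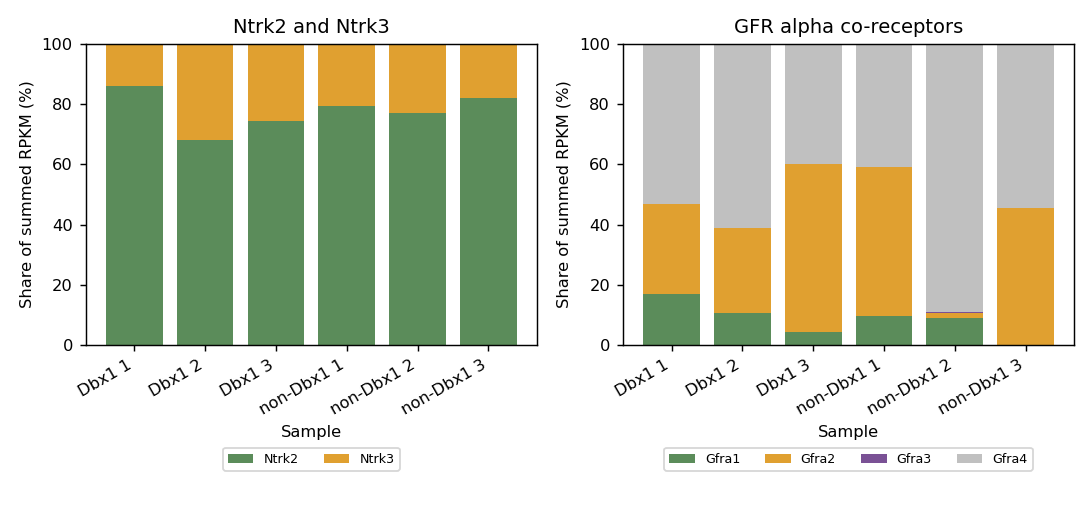
Share of each gene in the summed RPKM (%) of Ntrk2 and Ntrk3 (left) and of the 4 GFRα co-receptors (right), 1 bar per sample. Ntrk2 is the larger share in 6 of 6 samples and Gfra4, at the files' exon lengths, the largest in 4 of 6, reaching 89.1% in non-Dbx1 replicate 2.

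Of the GDNF family ligands, Nrtn, the gene of neurturin, was the highest, at 18.4 RPKM in non-Dbx1 replicate 1 and lowest in non-Dbx1 replicate 2. Its levels of 5.58 to 16.4 RPKM in the Dbx1 samples lay between those of these samples (L2FC 0.19, FDR 0.984 in limma). Nrtn and Gfra2, which encode the preferred ligand and co-receptor of one another, were both lowest in non-Dbx1 replicate 2 and both highest in non-Dbx1 replicate 1. Gdnf was at most 0.397 RPKM and 0 in 3 samples, so Gfra1 was read with little or no transcript of its preferred ligand. Pspn, the gene of persephin, had reads in non-Dbx1 replicate 1 only, at 1.63 RPKM. Ncam1, which encodes an adhesion molecule that GFRα1 can use without RET, was at 40.9 to 70.2 RPKM.

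**Figure D5:**
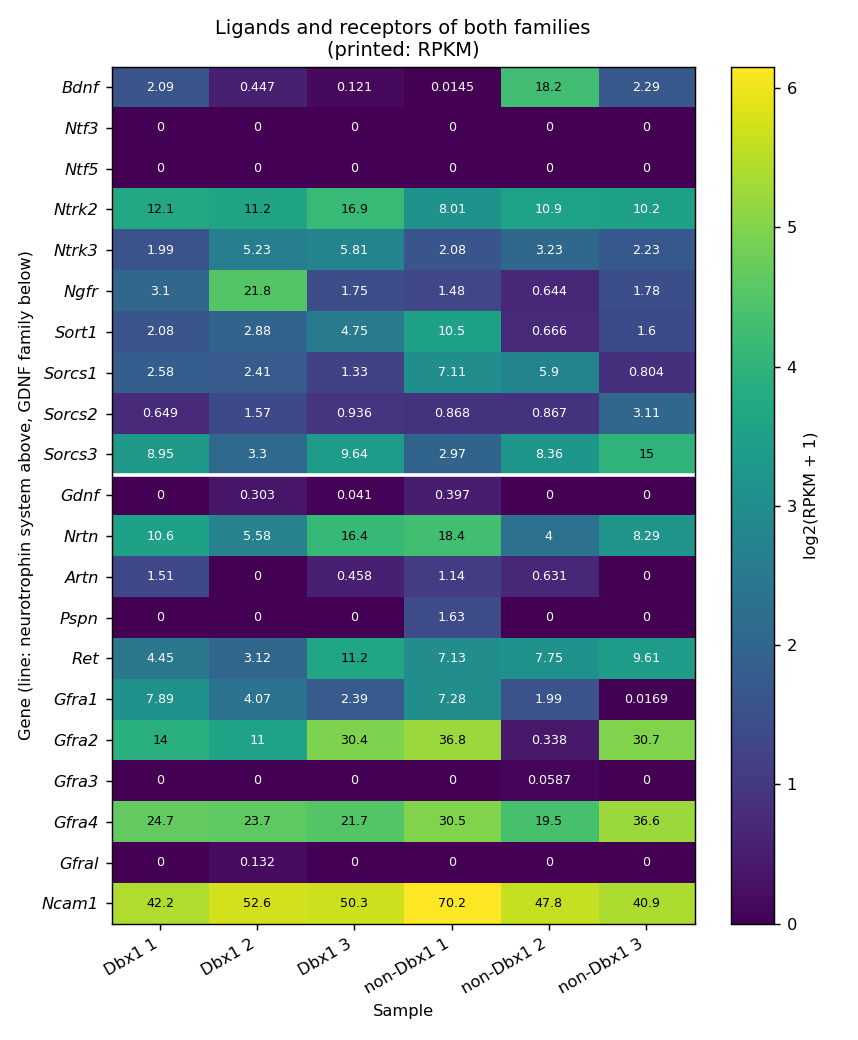
Expression of ligand and receptor genes of both families in each sample, with colour for log2(RPKM + 1), printed RPKM, and a white line between the neurotrophin system and the GDNF family. Among ligand genes Bdnf and Nrtn are read in all 6 samples and Ntf3 and Ntf5 in none; among receptor genes Ntrk2, Ret and Gfra4 are read in all 6 and Gfra3 in 1.

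Ordered by mean log2(RPKM + 1) over the 6 samples, Gfra2 (3.85) and Ntrk2 (3.62) were the highest members, followed by Ret (2.94), Ntrk3 (2.06), Gfra1 (1.98), Ngfr (1.92), Bdnf (1.39) and Ntf3 (0). The mean RPKM of Gfra2 stood at the 86.1th percentile and that of Ntrk2 at the 77.6th percentile of genes tested. Ntrk2 exceeded Ret in 6 of 6 samples and Ret exceeded Ntrk3 in 5 of 6. Of the 7 pairs of neighbours in this order none differed after adjustment (Benjamini-Hochberg over 7 exact two-sided sign-flip permutation tests). Before adjustment p was 0.0312, the smallest that 6 samples allow, for Ntrk2 over Ret and Bdnf over Ntf3, and the adjusted value for both was 0.109. Ntf3 was at 0 throughout, so any gene with reads in all 6 samples would give this p against it. The pairs were also neighbours in an order taken from the same values. An adjusted value under 0.05 would need most of the 7 pairs at the smallest p, so the lack of adjusted differences does not show equal levels. The order depended on the exon lengths used: with the exon lengths of the GENCODE vM21 annotation in place of those implied by the files, Gfra1 moved above Ntrk3 and Ntrk2 exceeded Ret in 3 of 6 samples.

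The rest of the signalling route was read from lists of 98 further genes, of which 90 could be tested. None of the 90 was called at FDR under 0.1, 7 had an unadjusted p under 0.05, and 11 had groups that did not overlap, beside 0.00568%, 5.2% and 10.6% of all genes. Their L2FC was above 0 for 40 and below 0 for 50, with a median of -0.09, beside 0.01 over all genes. The lowest FDR among them was 0.724.

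Downstream of the receptors, the 35 tested adaptors and kinases that couple Trk and RET to the Ras, PI3K and PLCγ routes had a median L2FC of -0.09. The lowest p among them was that of Sos1, the Ras exchange factor, at 6.22, 5.49 and 20.3 RPKM in Dbx1 replicates 1 to 3 and 2.29, 2.74 and 2.77 RPKM in non-Dbx1 replicates 1 to 3, groups that did not overlap. Its L2FC of 1.48 had a p of 0.0284 and an FDR of 0.912 in limma. Dok5, an adaptor of Trk and RET, ranged over 33.7 to 58.2 RPKM in Dbx1 and 13.4 to 32.7 RPKM in non-Dbx1 samples (L2FC 0.92, FDR 0.912 in limma). Map2k1, the kinase MEK1, was the highest of the list at 36.9 to 76.0 RPKM.

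Of the 10 p75 partners, Bex3, a p75-associated protein, was the highest at 192 to 317 RPKM and differed little between groups (L2FC 0.02). Ripk2, an adaptor kinase of the p75 intracellular domain, ranged over 0.106 to 0.590 RPKM in Dbx1 and 0.840 to 6.72 RPKM in non-Dbx1 samples, with an L2FC of -1.54 and an FDR of 0.912 in limma. Its order was opposite to that of Ngfr, whose mean was higher in Dbx1 samples, and neither was called.

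Among the 11 tested genes for the processing and release of proneurotrophins, 8 had an L2FC below 0, beside 8661 of all 17614 genes tested, and the median was -0.48. Furin, a protease that cleaves proneurotrophins, ranged over 0.0156 to 0.428 RPKM in Dbx1 and 0.927 to 1.42 RPKM in non-Dbx1 samples (L2FC -0.80, FDR 0.912 in limma). Scg2, a granin of dense-core vesicles, ranged over 87.4 to 110 RPKM in Dbx1 and 114 to 316 RPKM in non-Dbx1 samples (L2FC -0.97, FDR 0.912 in limma). Plat, the tissue plasminogen activator of the route that cleaves proBDNF, had the lowest L2FC of the list, -1.39, with overlapping groups and an FDR of 0.917 in limma. Scg2 was highest in non-Dbx1 replicate 2, the sample with the most Bdnf. Cpe, carboxypeptidase E, which is known to sort proBDNF to the regulated pathway, was the highest of the list at 230 to 417 RPKM in all samples.

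Of the 15 genes induced by activity or neurotrophins, 10 had an L2FC above 0, beside 8953 of all 17614 genes tested, and the median was 0.16. The 5 below 0 included Egr1 (-1.36), Fos (-1.31) and Vgf (-0.59). Dusp5, a phosphatase of nuclear ERK, had the lowest p of the 90 genes, 0.00339, with 1.63 to 2.26 RPKM in Dbx1 and 0 to 0.171 RPKM in non-Dbx1 samples (L2FC 1.40, FDR 0.724 in limma). Nptx2, a secreted pentraxin of excitatory synapses, had the largest L2FC, 2.22 (SE 0.76, FDR 0.909 in limma), with 53.5, 187 and 20.5 RPKM in Dbx1 replicates 1 to 3 and 25.9, 7.51 and 8.53 RPKM in non-Dbx1 replicates 1 to 3. Its highest sample, Dbx1 replicate 2, was also that of Ngfr. The 10 modulators of Trk and RET had a median L2FC of 0.02 and none had a p under 0.05; the one with the lowest p was Ptpro, a receptor phosphatase of TrkC and RET, with an L2FC of -1.15 and an FDR of 0.917 in limma.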

How the data were processed

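The authors made cDNA from pooled neurons (SMART-Seq v4), sequenced it single-end, aligned it to mm10 with TopHat2 and counted reads per gene name without regard to strand with HTSeq; per the labels and methods they deposited RPKM values, computed with Ensembl exon lengths (release not given in the sources used here). Each value pools all transcripts of a gene. From the RPKM values, library totals and whole reads were recovered: whole reads were found for all 20727 gene names non-zero in at least 2 samples, and they summed to 99.49% to 99.59% of the totals. The files' exon lengths differed from GENCODE vM21 for most genes, 12572 against 5476 bases for Gfra1 and 10691 against 6217 for Bdnf, so levels of different genes depend on them, whereas the L2FC of a gene does so only through the pseudocount. Antisense genes overlap Bdnf and Gfra1 and were listed at 0, and Gm9885, which overlaps Ntrk3, was at 0.280 to 2.44 RPKM. Without strand, reads on exons that coincide cannot be assigned to either gene. How the authors' counting treated such reads is not stated in the sources used here. They may be missing from the members, also where the antisense gene was listed at 0.

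All genes read in 3 or more samples were tested with limma 3.58.1 (R 4.3.3; trend, no covariate) on log2(RPKM + 1), with Benjamini-Hochberg adjustment over all 17614 genes. Levels of neighbouring members were compared by exact sign-flip tests. The named genes were the 8 members, ligands and receptors of both families (some results are not reported here), the gene of lowest p, largest L2FC and highest mean in each list, and the 3 genes most like the member with the widest range in each role; Dok5 and Furin were chosen after their values were seen, as were Slc17a6 and Dbx1. The members and lists were chosen with earlier results of these data known. Alternatives were another pseudocount, other filters, 2 scalings, no trend, a block, voom on recovered reads and leaving out each sample; receptor shares at annotated exon lengths were added after the data were seen.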

Additional observations from a re-analysis of the deposited data

How the results depend on the processing

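No member and no gene of the lists was called under any of the 14 alternatives tried. Over all genes, 1 was called; the count was 0 with a pseudocount of 0.1 (974 genes with an unadjusted p under 0.05), 0 with RPKM above 0 in at least 1 sample (777 such genes), 3 without the mean-variance trend, 0 with the replicate number as a block (819 such genes) and 0 with voom on recovered reads (737 such genes), all in limma. With each sample left out it lay between 0 and 1, being 0 without non-Dbx1 replicate 3 (1026 such genes). Of 105 recomputed member L2FC values, 2 reversed, both for Gfra2: -0.96 without non-Dbx1 replicate 2 (range -0.96 to 1.45 with each sample left out), a sample in which it had 10 reads, and -0.29 as the log2 ratio of mean RPKM, in which that sample weighs less. The same ratio gave -2.95 for Bdnf and 2.77 for Ngfr, each carried by 1 high sample. With voom the Gfra1 L2FC was 3.14. The lowest FDR of a member over the alternatives was 0.784. Without adjustment 2 neighbour pairs of the level order differed, among them Bdnf over Ntf3, where Ntf3 was at 0 in all samples. The replicate numbers do not pair the samples, which came from different mice; deviations of same-numbered samples correlated at -0.11 to 0.02, and the block changed no member's call. With 3 samples per group, p-values set the group difference against the spread between pools of 15 neurons, each from a different mouse. Spread between mice and spread between pools cannot be told apart. With annotated exon lengths Gfra4 was the highest GFRα gene in 6 rather than 4 samples.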
